A study of Homo sapiens with 8 samples.

Results

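The genes that carry a death receptor signal to caspase-8 or to the necrosome were examined in HuH7 cells after oxygen-glucose deprivation and reoxygenation (OGD/R). These were 4 receptors (TNFRSF1A, FAS, TNFRSF10A and TNFRSF10B), 2 adaptors (TRADD and FADD), the protease gene CASP8 with its paralog CFLAR, the kinase gene RIPK1 and the pore-forming effector MLKL. They were chosen by symbol, and all 10 had a row among the 15767 genes of the count table. Of the 12928 genes that reached 10 counts in 4 or more libraries, which were the genes tested, 9 were members of this group. FAS was the member below that limit.

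RNA-seq was performed on 8 libraries of wildtype HuH7 cells, a human hepatoma-derived line, in 2 groups of 4. All cells were held for 6 h in medium lacking glucose under 1% oxygen and were then returned to normoxia for 6 h. During reoxygenation they received DMSO, the vehicle (I/R+DMSO, the vehicle libraries, n = 4), or ginsenoside Rk2, a ginseng saponin, at 20 µM (I/R+Rk2, the Rk2 libraries, n = 4). Both groups had therefore undergone OGD/R, and the values compare Rk2 with vehicle after OGD/R, since cells without OGD/R were not analysed here. HuH7 is a single tumor line, and the labels do not say whether the 4 libraries of a group came from separate cultures, so the p-values measure the spread between libraries, which may be technical.

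Death receptors are members of the TNF receptor family with a death domain in the cytoplasm. After TNF binding, TNFR1 (TNFRSF1A) recruits TRADD and RIPK1 and mostly drives NF-κB and survival, whereas FAS and the TRAIL receptors DR4 (TNFRSF10A) and DR5 (TNFRSF10B) recruit FADD directly. FADD binds caspase-8, which cleaves downstream caspases, and c-FLIP, the product of CFLAR, competes with caspase-8 for FADD and restrains it. Where caspase-8 is not active, RIPK1 can engage RIPK3, and RIPK3 phosphorylates MLKL, which then permeabilizes the plasma membrane in necroptosis. Hepatocytes are known for their sensitivity to FAS ligation and for little or no RIPK3.

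Library totals were 18428485 to 21447045 counts with vehicle and 16374082 to 30310479 with Rk2. The 8 hepatocyte markers, albumin and alpha-fetoprotein among them, were all expressed, with summed FPKM of 4625 to 5118 with vehicle and 4964 to 5110 with Rk2. PTPRC (leukocytes), VWF and CDH5 (endothelium) and DCN (fibroblasts) were listed at 0 in every library, and 1 gene of each of these lists (CD68 of 5, PECAM1 of 3 and COL1A2 of 4) was expressed. In these bulk libraries fewer cells that express a gene and less RNA per cell cannot be told apart. The median log2 fold change over the 12928 genes was -0.002. Across genes, the fold change correlated with gene length (Spearman rho 0.388, a description across genes, which are not independent replicates).

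In the GENCODE v29 annotation of GRCh38, the build that the submitters' processing notes name as hg38, TNFRSF1A lies on chromosome 12 (6328757 to 6342114, minus strand) and FAS on chromosome 10 (88990582 to 89015785, plus strand). TNFRSF10A and TNFRSF10B are both on the minus strand of chromosome 8. TRADD (67154180 to 67160298) and MLKL (74671855 to 74700960) are both on the minus strand of chromosome 16, and FADD is on the plus strand of chromosome 11 (70203163 to 70207390). CFLAR (201116104 to 201176687) and CASP8 (201233443 to 201287711) lie close together on the plus strand of chromosome 2, and RIPK1 on the plus strand of chromosome 6 (3063991 to 3115187). Exons of TNFRSF1A, CASP8 and MLKL overlap those of no other gene. CFLAR shares 445 exonic bases with AC007283.1 on its own strand. Exons of the other 6 and of CFLAR overlap genes of the opposite strand over 67 bases (TNFRSF10B with RHOBTB2) to 2265 bases (CFLAR with CFLAR-AS1 and IMPDH1P10), including 1011 bases of FADD with AP000879.1. The strand setting of the counting is not given in the sources used here, so reads from such partners cannot be told apart.

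The first question was which necroptosis genes these cells express at all. Of 21 genes of the pathway, 12 were expressed, meaning that they passed the count filter and reached a mean of at least 0.5 FPKM (fragments scaled to transcript length and library size) over the 8 libraries. These were RIPK1, the receptors TNFRSF1A, TNFRSF10A and TNFRSF10B, the adaptors TRADD and FADD, CASP8, CFLAR, the ubiquitin checkpoints CYLD, BIRC2 and BIRC3, and TICAM1, which encodes the adaptor TRIF of Toll-like receptors. A further 6 (MLKL, FAS, TLR3, TLR4, TNF and TNFSF10) were detected at a low level. RIPK3, ZBP1, the nucleic acid sensor that engages it, and FASLG, the FAS ligand, were listed at 0 in all 8 libraries of the FPKM table and have no row of counts used here. The split was the same with a limit of 1 FPKM, while a limit of 1 CPM (counts scaled to library size) moved TLR4 to the expressed genes, 13 of 21. Each of the 15767 genes with a row of counts held at least 1 count in total, so genes at 0 counts may have no row. Whether this holds for RIPK3, ZBP1 and FASLG was not tested, and no upper limit is given for them.

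Compared per length of transcript, the 10 genes covered a wide range of levels. DR5 (TNFRSF10B) had the highest level, a mean of 76.3 FPKM over the 8 libraries (range 59.2 to 92.2), above 92.3% of the genes tested. FADD followed with 40.0 FPKM (35.3 to 46.0) and TNFRSF1A with 36.9 FPKM (30.3 to 46.7), and the ranges of these neighbours overlapped. CASP8 had 19.1 FPKM (16.9 to 22.6), TNFRSF10A 12.7 FPKM (10.9 to 13.8), CFLAR 9.50 FPKM (7.34 to 12.8), RIPK1 8.60 FPKM (7.65 to 8.92) and TRADD 3.76 FPKM (3.35 to 4.50). Along this order TNFRSF10A overlapped CFLAR in range, and CFLAR overlapped RIPK1. MLKL was far below, at 0.0930 FPKM (0.0635 to 0.130), under all but 0.627% of the genes tested, and FAS lower still at 0.0362 FPKM (0 to 0.0631). The plot of levels shows this gap between TRADD and MLKL in every library of both groups.

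**Figure D1:**
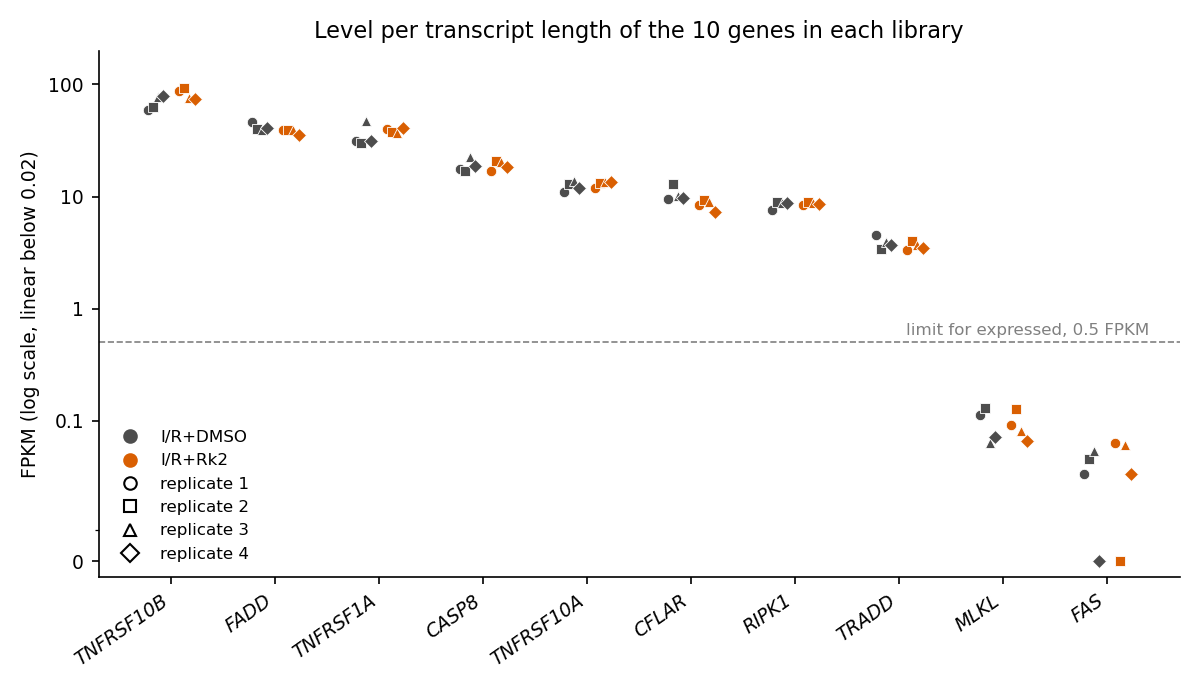
FPKM of each of the 10 genes on a log scale that is linear below 0.02, with 1 symbol per library, gray for I/R+DMSO and orange for I/R+Rk2, and shapes for the replicate number. The 8 genes from TNFRSF10B to TRADD lie at 3.35 FPKM or above in all 8 libraries, and MLKL and FAS at 0.130 FPKM or below, under the dashed limit of 0.5 FPKM.

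The second question was whether Rk2 changed any of these transcripts. With edgeR, 1 of the 9 members tested was called higher with Rk2 at an adjusted p below 0.05, against a background of 11.0% of all genes tested. None was called lower, against 7.23% of all genes, and DESeq2 also called 0 lower, against 1318 of 12928 genes. FADD was the single member lower at an unadjusted p below 0.05, a limit for which no share over all genes is given here. None was called with a change above 1.5-fold, against 3.04% of all genes, by edgeR or by DESeq2. The groups did not overlap for 2 members, TNFRSF10B and FADD, against 28.2% of all genes, as the plot of normalized counts by library shows. The median log2 fold change of the 9 was -0.09, and 7 of the point estimates were below 0. For 7 of the 9 the 95% confidence interval lay within a 1.5-fold change in either direction, and the exceptions were CFLAR and MLKL.

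**Figure D2:**
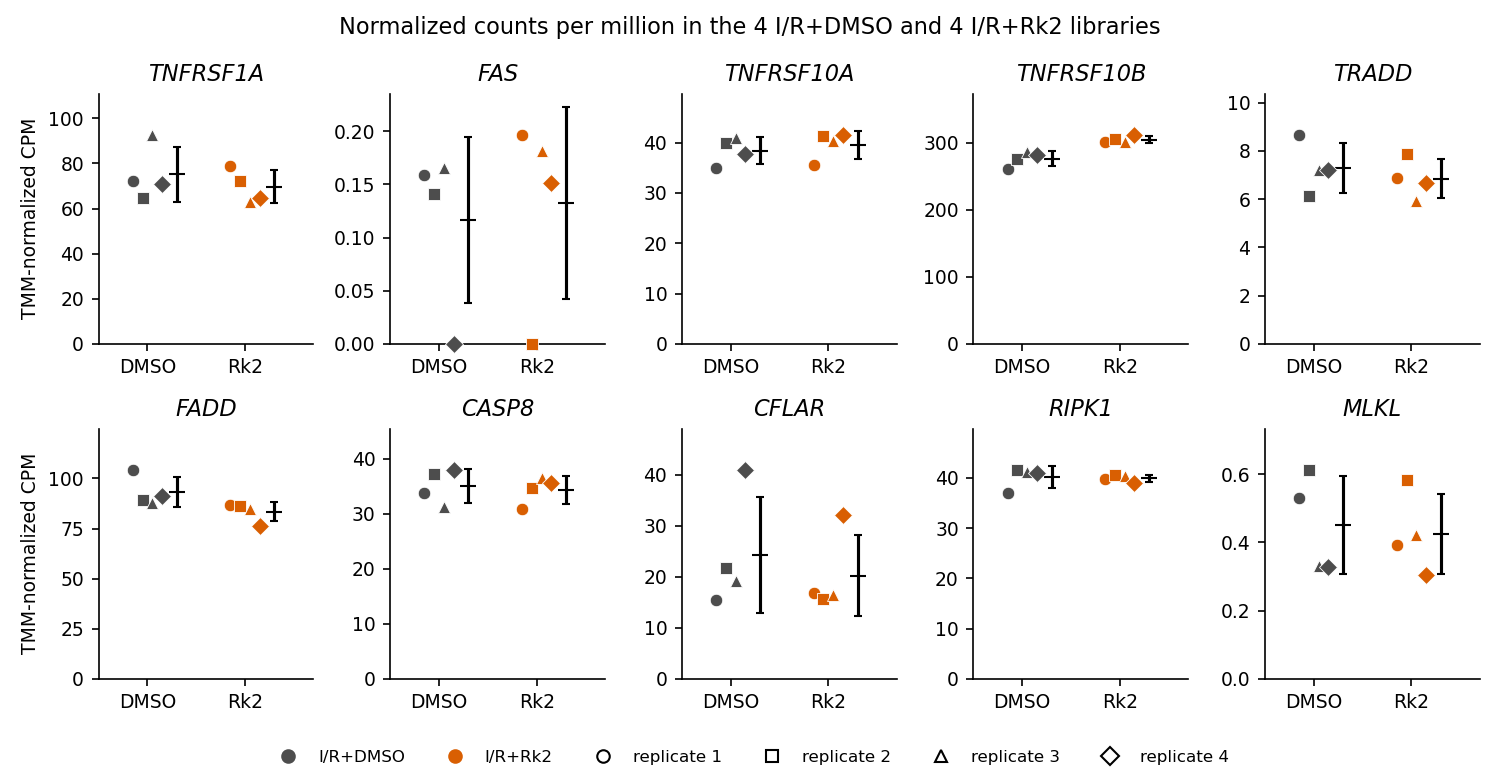
TMM-normalized CPM of each gene in the 4 I/R+DMSO (gray) and 4 I/R+Rk2 (orange) libraries, from 0 on each axis, with the mean and SD beside each group and shapes for the replicate number. TNFRSF10B (260 to 286 against 300.4 to 311) and FADD (87.7 to 104 against 76.3 to 86.6) are the 2 tested genes without overlap between groups.

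**Figure D3:**
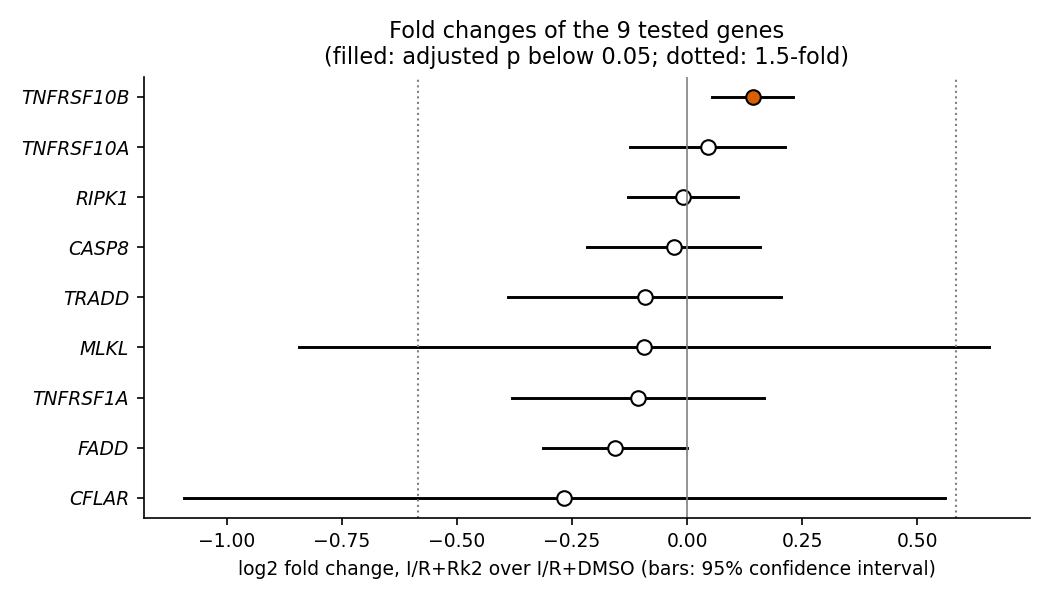
Log2 fold change of I/R+Rk2 over I/R+DMSO for the 9 tested genes, with 95% confidence intervals from edgeR. The filled point, TNFRSF10B at 0.14, passed the test, and only the intervals of CFLAR and MLKL cross the dotted 1.5-fold lines.

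Among the receptors that were members of the group and tested, DR5 was the only one called, and the call held in 8 of 20 alternatives. Its normalized counts were 260, 276, 286 and 281 CPM in the vehicle libraries and 301, 305, 300.4 and 311 CPM in the Rk2 libraries. Every Rk2 library was above every vehicle library. TNFRSF10B rose from 276 ± 11.0 to 304 ± 4.85 CPM (n = 4 each, ± SD), a log2 fold change of 0.14 with a standard error of 0.0382, or 1.10-fold with a 95% confidence interval of 1.04 to 1.17 (edgeR, Benjamini-Hochberg adjusted p = 0.0364). The call was lost on the FPKM table, where the levels were 69.8 ± 10.3 and 82.7 ± 8.58 FPKM (n = 4 each, ± SD) and the groups overlapped (exact two-sided permutation p = 0.171; limma adjusted p = 0.200). Removing the trend with gene length brought the log2 fold change to 0.09 (edgeR adjusted p = 0.0703), and leaving out any library other than vehicle replicate 1 or 3 also ended the call, with an adjusted p up to 0.0972 in edgeR.

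DR4, the other TRAIL receptor with a death domain, had 38.4 ± 2.68 CPM with vehicle and 39.6 ± 2.79 CPM with Rk2 (n = 4 each, ± SD). The groups overlapped, and the log2 fold change was 0.04 (95% confidence interval -0.12 to 0.21, edgeR adjusted p = 0.714). The decoy receptor TNFRSF10D, which binds TRAIL without a full death domain, had 183 ± 5.71 and 170 ± 6.27 CPM (n = 4 each, ± SD; edgeR adjusted p = 0.121). Per length, the level of DR5 was 5.65 ± 0.736 times that of DR4 with vehicle and 6.38 ± 0.906 times with Rk2, and 1.63 ± 0.230 and 2.03 ± 0.157 times that of the decoy (ratios of FPKM, n = 4 each, ± SD, not tested). The ratio of DR5 to the decoy overlapped between groups, with 1.41 to 1.86 with vehicle and 1.85 to 2.17 with Rk2.

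TNFR1 had 75.1 ± 12.1 CPM with vehicle and 69.7 ± 7.29 CPM with Rk2 (n = 4 each, ± SD), a log2 fold change of -0.11 (95% confidence interval -0.38 to 0.17, edgeR adjusted p = 0.572). In vehicle replicate 3 it reached 92.5 CPM, against 64.8 to 72.1 in the other libraries of that group. Without that library the log2 fold change was 0.009, and on the FPKM scale it was 0.17, so its sign depended on the library and the table.

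FAS was nearly undetected. The 4 vehicle libraries held 3, 3, 3 and 0 counts and the 4 Rk2 libraries 6, 0, 3 and 3, which is 9 counts against 12 in all. The groups overlapped, and the normalized CPM did not separate them (exact two-sided permutation p = 0.600). In the 2 libraries at 0 the depth allows up to 3 counts, and over the 8 libraries 3 counts correspond to 0.0982 to 0.181 CPM, a limit for counting error only. A fall or a small rise of FAS was therefore not detectable at this depth, and no Rk2 library held more than 6 counts.

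Both adaptors were expressed. TRADD, which links TNFR1 to its signaling complex, had 7.30 ± 1.04 and 6.84 ± 0.810 CPM (n = 4 each, ± SD), and the groups overlapped (log2 fold change -0.09, edgeR adjusted p = 0.659). FADD, the adaptor through which FAS and the TRAIL receptors reach caspase-8, had 104, 89.0, 87.7 and 91.4 CPM with vehicle and 86.6, 86.2, 84.6 and 76.3 CPM with Rk2. All 4 Rk2 libraries were below the lowest vehicle library, by a narrow margin. The means were 93.0 ± 7.51 and 83.4 ± 4.82 CPM (n = 4 each, ± SD), a log2 fold change of -0.16 with a 95% confidence interval of -0.31 to -0.0002. This did not pass the adjustment over all genes (edgeR, Benjamini-Hochberg adjusted p = 0.145), nor under any of the 20 alternatives (adjusted p 0.121 to 0.295 in edgeR, DESeq2 and limma). On the FPKM scale FADD had 41.8 ± 2.92 and 38.3 ± 2.05 (n = 4 each, ± SD; exact two-sided permutation p = 0.0571).

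CASP8, the initiator caspase of this pathway, had 33.8, 37.3, 31.3 and 37.9 CPM with vehicle and 30.8, 34.7, 36.6 and 35.5 CPM with Rk2. The ranges of the groups nearly coincided. Its log2 fold change was -0.03 with a 95% confidence interval of -0.22 to 0.16 (edgeR adjusted p = 0.833). CASP10, the paralog that neighbours it and is also recruited by FADD, had 14.9 ± 2.37 and 13.2 ± 6.88 CPM (n = 4 each, ± SD; log2 fold change -0.16, edgeR adjusted p = 0.795). Among the Rk2 libraries, CASP10 was at 20.1 and 18.1 CPM in replicates 1 and 2 and at 6.17 and 8.59 CPM in replicates 3 and 4, with the vehicle libraries between, at 12.4 to 17.2 CPM.

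CFLAR, the brake on caspase-8, differed more between libraries than between groups. Its normalized counts were 15.4, 21.8, 19.1 and 40.8 CPM with vehicle and 16.8, 15.6, 16.4 and 32.1 CPM with Rk2. The library numbered 4 was the highest of each group, with 2.08 times the CPM of the other 6 libraries on average. The log2 fold change was -0.27 with a wide 95% confidence interval of -1.09 to 0.56 (edgeR adjusted p = 0.643), and it became 0.11 without vehicle replicate 4. Both libraries numbered 4 were above the other 6 for 282 of 11209 genes, or 2.52%.

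The FPKM table gave another picture of CFLAR. There the values were 9.58, 12.8, 10.0 and 9.79 FPKM with vehicle and 8.34, 9.23, 8.87 and 7.34 FPKM with Rk2. The groups did not overlap on this scale, at 10.6 ± 1.53 and 8.44 ± 0.822 FPKM (n = 4 each, ± SD; exact two-sided permutation p = 0.0286, the smallest that 4 against 4 libraries allow), although limma across all genes did not call it (adjusted p = 0.122). The libraries numbered 4 were not high here, with 0.873 times the FPKM of the others. The ratio of CPM to FPKM, which a fixed gene length would hold constant, was 4.17 and 4.37 in those 2 libraries and 1.61 to 2.02 in the other 6. Its highest value was 2.71 times its lowest, a wider spread than that of 97.1% of 11209 genes, whose median was 1.25 times. The merged exons of CFLAR cover 22529 bases in 20 blocks, the most of the 10 genes. The same spread was 1.60 times for CASP8, 1.47 for TNFRSF1A, 1.33 for TNFRSF10B and 1.05 for FADD. Whether the groups overlapped for CFLAR thus depended on the table, and the cause was not tested.

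**Figure D4:**
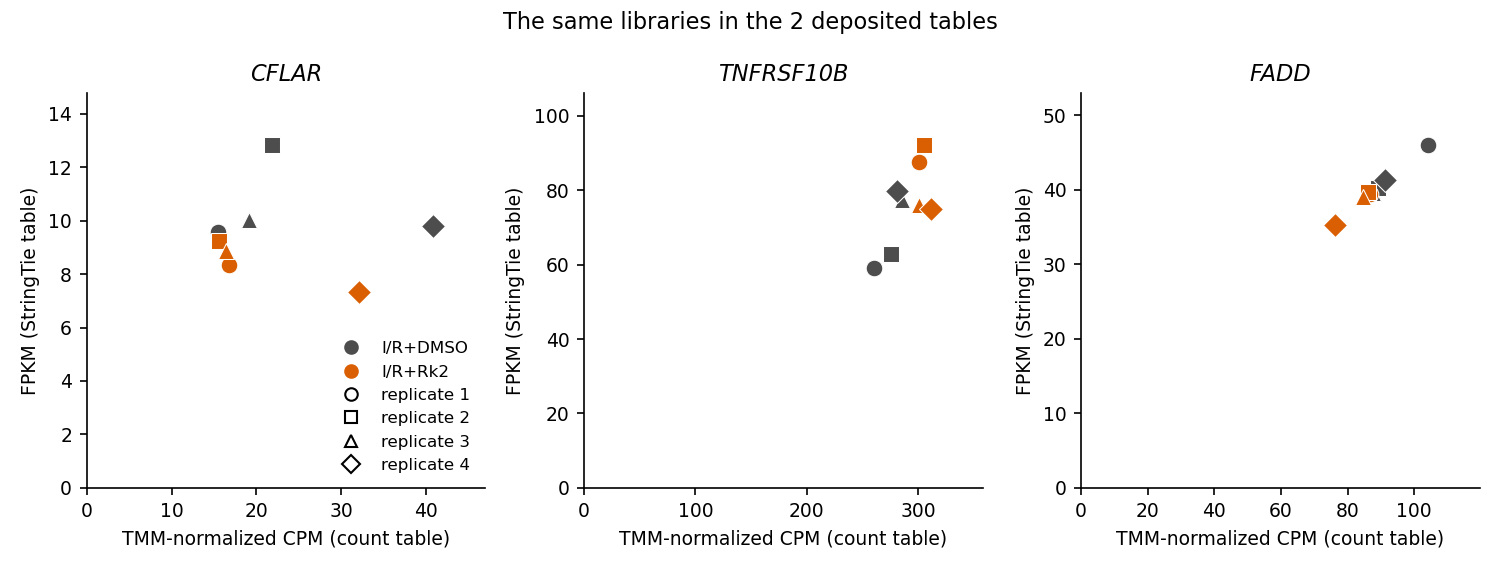
FPKM against TMM-normalized CPM of CFLAR, TNFRSF10B and FADD, with 1 symbol per library (gray I/R+DMSO, orange I/R+Rk2, shapes for the replicate number). The 2 CFLAR libraries numbered 4, at 40.8 and 32.1 CPM, stand to the right of the other 6 but, at 9.79 and 7.34 FPKM, not above them. The FADD points lie near a line.

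The balance of these proteins' transcripts was also given per length. The ratio of CFLAR to CASP8 in FPKM was 0.567 ± 0.136 with vehicle and 0.443 ± 0.0396 with Rk2 (n = 4 each, ± SD). It ranged from 0.444 to 0.762 and from 0.397 to 0.493, so the groups overlapped. The level of FADD was 2.23 ± 0.366 and 2.02 ± 0.210 times that of CASP8 (ratios of FPKM, n = 4 each, ± SD). Neither ratio was tested. The ratio of CFLAR to CASP8 holds for FPKM only. Between libraries, CPM over FPKM spread 2.71 times for CFLAR and 1.60 times for CASP8.

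RIPK1, the kinase shared by the survival, apoptotic and necroptotic complexes, varied little between libraries. It had 37.0, 41.5, 41.2 and 41.0 CPM with vehicle and 39.7, 40.6, 40.4 and 39.0 CPM with Rk2, and the second range lay inside the first. The log2 fold change was -0.01 with a 95% confidence interval of -0.13 to 0.11 (edgeR adjusted p = 0.925).

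MLKL, the executor of necroptosis, passed the filter with few reads. The vehicle libraries held 10, 13, 6 and 7 counts and the Rk2 libraries 12, 11, 7 and 6, a total of 36 in each group. Normalized, these were 0.531, 0.612, 0.330 and 0.328 CPM against 0.393, 0.582, 0.423 and 0.303 CPM, and the groups overlapped. The means were 0.450 ± 0.144 and 0.425 ± 0.116 CPM (n = 4 each, ± SD), a log2 fold change of -0.09 (edgeR adjusted p = 0.870). The 95% confidence interval of -0.84 to 0.66 reached past a 1.5-fold change in both directions, so a change of that size was not detectable at this depth. The exons of MLKL overlap no other gene, and RIPK3, the kinase that activates it, was listed at 0.

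The ligands were scarce. TNF had 10, 7, 13 and 8 counts with vehicle and 4, 2, 0 and 7 with Rk2, below the filter, and its CPM did not separate the groups past the threshold (exact two-sided permutation p = 0.0571). On the FPKM scale TNF had 0.239 ± 0.0857 and 0.0640 ± 0.0647 (n = 4 each, ± SD), and the groups did not overlap (exact two-sided permutation p = 0.0286, the smallest possible here), so whether they overlapped depended on the table. In fits across all genes without a filter TNF was not called (adjusted p = 0.152 in edgeR and 0.0698 in limma on log2(FPKM + 1)). TNFSF10, which encodes TRAIL, had 0.764 ± 0.264 and 0.791 ± 0.302 CPM (n = 4 each, ± SD; edgeR adjusted p = 0.937).

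The other genes of the pathway were followed as 6 lists, 84 genes in all, of which 75 were tested, 4 were below the filter and 5 were listed at 0. With edgeR, 11 were called higher with Rk2 and 8 lower, 56 were not called, and the median log2 fold change was 0.03. The background was 11.0% higher and 7.23% lower over all genes. Called changes above 1.5-fold numbered 3, against 3.04% of all genes, and the groups did not overlap for 26 of the 75, against 28.2%. These counts moved with single libraries, from 1 to 6 lower and from 3 to 12 higher in fits without 1 library. The count called lower was 1 without Rk2 replicate 1, 2 or 4, and the count called higher was 3 without Rk2 replicate 4.

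The calls above 1.5-fold all belonged to the regulators linked to endoplasmic reticulum stress. Of these, 5 of 8 were called higher and 0 lower by both edgeR and DESeq2. Over all genes, edgeR called 11.0% higher and 7.23% lower, and DESeq2 called 1692 higher and 1318 lower of 12928. The median log2 fold change of the list was 0.42. As the list was chosen with earlier results of these data known, these counts are a description only. EIF2AK3, which encodes the stress-sensing kinase PERK, had 26.5, 25.7, 32.1 and 28.8 CPM with vehicle and 49.9, 53.3, 52.0 and 61.9 CPM with Rk2. ATF4, the transcription factor translated under PERK signaling, rose from 514 ± 35.9 to 693 ± 13.4 CPM (n = 4 each, ± SD). DDIT3, whose product CHOP is known to act on the TNFRSF10B promoter, had 17.1, 7.86, 15.1 and 9.23 CPM with vehicle and 23.0, 24.5, 32.4 and 22.2 CPM with Rk2. In all 3 genes every Rk2 library was above every vehicle library. The log2 fold changes were 0.94 for EIF2AK3 (adjusted p = 8.6e-04), 0.43 for ATF4 (adjusted p = 0.00186) and 1.05 for DDIT3 (adjusted p = 0.0298), all from edgeR with Benjamini-Hochberg adjustment. ATF3 rose by 1.35 (edgeR adjusted p = 0.0247) and ERN1, which encodes the sensor IRE1, by 0.25 (edgeR adjusted p = 0.0236) on the log2 scale. The calls of EIF2AK3 and ATF4 held in all 20 alternatives, whereas in the 8 fits without 1 library that of DDIT3 held in 2 (without vehicle replicate 1 or 3), that of ATF3 in 4 (without vehicle replicate 1, 3 or 4 or Rk2 replicate 1) and that of ERN1 in 3. The call of ERN1 was also lost in all 3 limma fits on FPKM (0.16 on log2(FPKM + 1), adjusted p = 0.163) and with the length correction, at a log2 fold change of 0.11 (edgeR adjusted p = 0.0769).

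**Figure D5:**
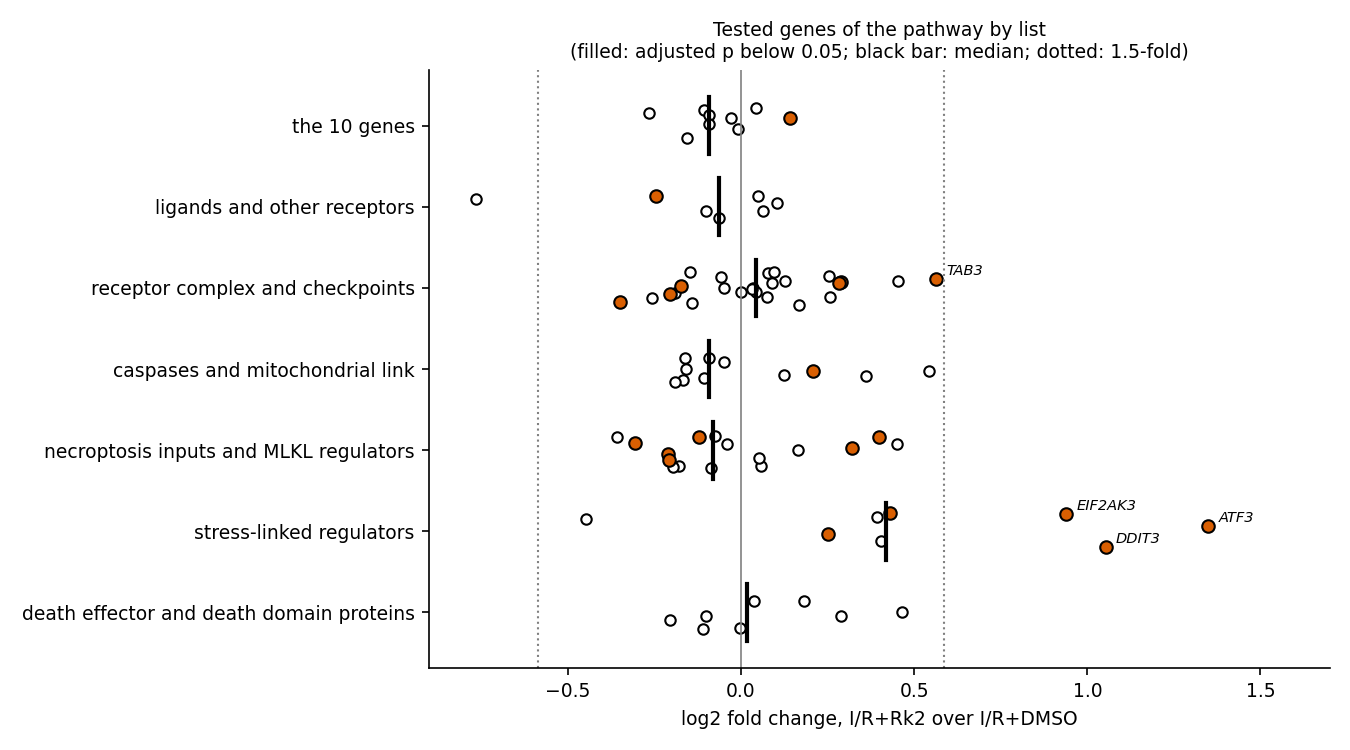
Log2 fold change of I/R+Rk2 over I/R+DMSO for the tested genes of the 10 members and of the 6 pathway lists, 1 point per gene (vertical position within a row has no meaning), filled where the adjusted p in edgeR was below 0.05, with the median of each list as a black bar. The stress-linked regulators hold the 3 called genes past 1.5-fold (EIF2AK3, DDIT3 and ATF3), and the medians of the other rows lie between -0.09 and 0.04.

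Of the 25 genes of the receptor complex and its ubiquitin and kinase checkpoints, edgeR called 3 higher and 3 lower. The background was 11.0% higher and 7.23% lower over all genes, and the median log2 fold change of the list was 0.04. MAP3K7, the kinase TAK1 that restrains RIPK1, rose by 0.29 (edgeR adjusted p = 0.0167) and TAB3, a ubiquitin-binding partner of TAK1, by 0.56 on the log2 scale (edgeR adjusted p = 0.00480). TBK1, a kinase that also phosphorylates RIPK1, rose by 0.28 (edgeR adjusted p = 0.0216), while its relative IKBKE fell by 0.35 (edgeR adjusted p = 0.0104). TRAF2, the scaffold that brings BIRC2 and BIRC3 to TNFR1, fell by 0.20 (edgeR adjusted p = 0.0342). TAB1, named after its value was seen, fell by 0.17 (edgeR adjusted p = 0.0461). The call of TAB3 held in all 20 alternatives and that of IKBKE in all 8 fits without 1 library, whereas those of MAP3K7, TBK1, TRAF2 and TAB1 held in 7, 4, 3 and 1 of these 8. Removing the trend with gene length ended the call of MAP3K7 and brought its log2 fold change to 0.16 (edgeR adjusted p = 0.0538). The calls of TRAF2 and TAB1 were also lost with library size only and in all 3 limma fits on FPKM, and that of IKBKE in the limma fit on FPKM without a filter.

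All 11 genes of the caspases and the mitochondrial link were tested. Of these, edgeR called 0 lower, against 7.23% of all genes, and DESeq2 called 1 lower, against 1318 of 12928 genes. In either direction, 3 had an unadjusted p below 0.05, a limit for which no share over all genes is given here. The median log2 fold change was -0.09. CASP10, described above with CASP8, was one that was not called.

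The necroptosis inputs, necrosome partners and MLKL regulators numbered 18, of which 16 were tested and RIPK3 and ZBP1 were listed at 0. With edgeR, 2 were called higher and 4 lower, against 11.0% and 7.23% of all genes, with a median log2 fold change of -0.08. IPMK, a kinase that makes the inositol phosphates MLKL binds, rose by 0.40 (edgeR adjusted p = 0.0186), and PELI1, a ubiquitin ligase of RIPK1, by 0.32 (edgeR adjusted p = 0.0282) on the log2 scale. HSP90AB1, a chaperone of RIPK1 and other kinases, fell by 0.12 (edgeR adjusted p = 0.0262), PGAM5, a mitochondrial phosphatase, by 0.21 (edgeR adjusted p = 0.0269) and FLOT1, a membrane scaffold, by 0.31 (edgeR adjusted p = 0.0328). TICAM1, outside the 5 smallest p-values of its list, fell by 0.21 (edgeR adjusted p = 0.0357). The call of IPMK held in 6 of the 8 fits without 1 library, that of PELI1 in 3 and those of the other 4 in 2 each. The length correction ended the calls of IPMK, at a log2 fold change of 0.22 (edgeR adjusted p = 0.0942), and of FLOT1, at -0.18 (edgeR adjusted p = 0.195). Limma on FPKM ended those of HSP90AB1, PGAM5, FLOT1 and TICAM1 in all 3 fits (FLOT1 at -0.16 on log2(FPKM + 1)) and that of IPMK without a filter. With library size only, HSP90AB1, PGAM5 and TICAM1 were not called.

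Of the ligands and other receptors, 7 of 14 were tested. In either direction, 2 had an unadjusted p below 0.05, a limit for which no share over all genes is given here. Over all genes, edgeR called 11.0% higher and 7.23% lower, and DESeq2 called 1692 higher and 1318 lower of 12928. In this list, edgeR and DESeq2 each called 0 higher, and edgeR called 1 lower. This was TNFRSF11B, the soluble decoy osteoprotegerin, which fell from 38.5 ± 2.95 to 32.5 ± 1.84 CPM (n = 4 each, ± SD; log2 fold change -0.25, edgeR adjusted p = 0.0470), a call kept in 1 of the 8 fits that left out a library and in 4 of the other 12 alternatives. None of the 8 further death effector and death domain proteins was called by edgeR, and DESeq2 called 1 lower, against 1318 of 12928 genes. An unadjusted p below 0.05 was found for 4, again without a share over all genes beside it.

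The genes whose log2 CPM ran most like that of TNFRSF10B over the 8 libraries were SYPL2 (Pearson r 0.998), NEDD9 (0.989) and PFKFB2 (0.989), picked from 12928 genes as a description, and these libraries share the difference between groups.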

How the data were processed

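RNA-seq of 8 HuH7 libraries was prepared from 250 ng of RNA. The authors deposited raw counts per gene, not normalized, and FPKM values, normalized for length and depth. The submitters' processing notes name FastQC 0.11.5, HISAT2 2.2.1, StringTie 1.3.3 and hg38. The counting tool is not given in the sources used here. Of the symbols with counts, 22 had been turned into dates (0.111% of counts) and were kept in the fit without a gene name. Samples were grouped by title.

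Counts were TMM-normalized and tested with edgeR 4.0.16 (R 4.3.3; robust quasi-likelihood, condition only, Benjamini-Hochberg over 12928 genes). Alternatives used DESeq2 1.42.0, limma 3.58.1 on log2(FPKM + 1) or log2(FPKM + 0.1), other factors and filters (none, or 50 counts in every library), a loess length correction (span 0.5), a replicate block and each library left out. The fits were tested on simulated data. Permutation tests were exact and two-sided. Intervals and limits cover counting error only where they rest on counts of 1 library.

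Members and lists were chosen with earlier results of these data known. Values are given for all members, for RIPK3, ZBP1, TNF, FASLG, TNFSF10 and CASP10, for up to 5 called genes per list with the smallest adjusted p, and for the 3 genes most like TNFRSF10B. TNFRSF10D, TAB1, TICAM1 and CD14 were named after their values were seen. Some genes that the rule or lists include are not reported here.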

Additional observations from a re-analysis of the deposited data

Results flagged for a closer look

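Of 40 sets of 4 values (10 genes, 2 groups, CPM and FPKM), 7 had a library far from the other 3 of its group by Dixon's test at 95%, which chance gives in about 1 in 20 sets. TNFRSF1A had 46.7 FPKM in I/R+DMSO replicate 3, against 30.3 to 31.5 in the others of the group. CFLAR had 32.1 CPM in I/R+Rk2 replicate 4, against 15.6 to 16.8, and 12.8 FPKM in I/R+DMSO replicate 2, against 9.58 to 10.0. RIPK1 was low in I/R+DMSO replicate 1 on both scales, with 37.0 CPM against 41.0 to 41.5 and 7.65 FPKM against 8.72 to 8.92. FADD had 35.3 FPKM in I/R+Rk2 replicate 4, against 39.1 to 39.6. FAS had 0 CPM in I/R+DMSO replicate 4, against 0.141 to 0.165, where 3 counts correspond to 0.141 CPM.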

How the results depend on the processing

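The number of members called lower was 0 under all 20 alternatives. The number called higher, 1 with edgeR, was 0 under limma on FPKM (all 3 settings), the replicate block, the gene length correction and both together, and 0 to 1 with a library left out. For TNFRSF10B the adjusted p was 0.0603 with the replicate block (log2 fold change 0.14) and 0.128 with block and length correction (0.09). It was called in 8 of 20 alternatives, with a log2 fold change of 0.09 to 0.25. The labels give only a shared number, and same-numbered libraries deviated with correlations of -0.00945 to 0.0845, so they were not taken as pairs. Pathway genes called lower, 8 with edgeR, numbered 2 with library size only, 2 under limma on log2(FPKM + 1), 2 on log2(FPKM + 0.1), 1 without filter and 3 with the replicate block (which lost TRAF2, TAB1, PGAM5, FLOT1, TICAM1 and TNFRSF11B), and 1 to 6 with a library left out. Pathway genes called higher, 11, numbered 7 with block and length correction and 3 to 12 with a library left out. With each library left out in turn, log2 fold changes spanned -0.17 to 0.0090 for TNFRSF1A, -0.081 to 0.020 for CASP8, -0.58 to 0.11 for CFLAR, -0.046 to 0.0069 for RIPK1 and -0.27 to 0.095 for MLKL. ATF3 had an adjusted p of 0.0504 with the replicate block. Among members that were not called, the sign of the log2 fold change turned in these cases. TNFRSF1A had 0.17 or 0.18 under limma. CASP8 had 0.0015 with library size only, 0.014 or 0.015 under limma, 0.038 with the length correction and 0.041 with block and length correction. RIPK1 had 0.022 with library size only and 0.026 or 0.029 under limma. The sign also turned without vehicle replicate 4 for CFLAR, without vehicle replicate 2 or Rk2 replicate 4 for MLKL, without vehicle replicate 3 for TNFRSF1A, and for CASP8 and RIPK1 in 3 and 4 of the 8 such fits. The cause was not tested. Depth limited FAS, TNF and MLKL.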

Other observations

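CD14, a monocyte marker at a low level in these cells, had 0.802 ± 0.255 CPM in vehicle and 0.340 ± 0.124 CPM in Rk2 (n = 4 each, ± SD), a log2 fold change of -1.25 (edgeR, Benjamini-Hochberg adjusted p = 0.0430). The summed FPKM of the 5 leukocyte markers was 27.2 to 32.7 in vehicle and 24.2 to 32.7 in Rk2, nearly all of it from CD68. The part of such cells in the values of the death receptor genes was not tested.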
